A study of Mus musculus with 4 samples.

Results

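The aldehyde dehydrogenases described here are 10 genes, Aldh1a1, Aldh1a2, Aldh1a3, Aldh1a7, Aldh1b1, Aldh1l1, Aldh1l2, Aldh2, Aldh3a2 and Aldh9a1, of the 39170 rows in the deposited gene table. They were found by their symbols, each matching 1 row, and all 10 had a status of OK in every library. RNA was sequenced from insulin-positive islet cells of MIP-GFP C57BL/6 males, a transgenic line whose green fluorescent protein is driven by the mouse insulin 1 promoter and so marks beta cells. The mice were 6 to 8 weeks old, and 3 received streptozotocin (STZ) and 3 vehicle. The cells were sorted by FACS on Glut2, a glucose transporter and the product of Slc2a2, through which streptozotocin enters beta cells, into a low gate (Glut2L), which the submitters state to hold more pancreatic progenitors, and a high gate (Glut2H). The 4 groups are Glut2L STZ and Glut2H STZ, from mice given 200 mg/kg of streptozotocin in citrate buffer and diabetic 4 days later, and Glut2L control and Glut2H control, from mice given vehicle. Each group holds 1 library, and the sources used here do not say whether its mice were pooled. With no replicates, no difference could be tested, and the values describe these 4 libraries alone.

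Aldehyde dehydrogenases oxidise reactive aldehydes to carboxylic acids with NAD+ or NADP+, through a conserved cysteine in the active site. Aldh1a1, Aldh1a2 and Aldh1a3 turn retinaldehyde into retinoic acid, the ligand of the retinoic acid receptors. Aldh1b1 and Aldh2 are mitochondrial enzymes that clear acetaldehyde and products of lipid peroxidation, Aldh1l1 and Aldh1l2 oxidise 10-formyltetrahydrofolate in the cytosol and in mitochondria, Aldh3a2 oxidises long-chain fatty aldehydes and Aldh9a1 takes part in carnitine synthesis. In the pancreas, Aldh1b1 is known from progenitors and centroacinar cells, and Aldh1a3 from beta cells that lose their identity in diabetes.

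Levels are FPKM as deposited (fragments scaled to gene length and to library size, so that long and short genes can be compared), and differences are of log2(FPKM + 1), which understates those of low genes. A gene counts as measured in a comparison when the higher of its 2 values reached 1 FPKM, and counts of higher or lower genes are of differences of at least 2-fold on that scale. The number of reads is unknown. The intervals quoted are those deposited with each FPKM, at a level that is not stated.

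The libraries did not follow their gate labels at Slc2a2, which stood at 33.7 FPKM in Glut2L STZ and 10.8 in Glut2H STZ, and at 41.0 in Glut2L control and 8.74 in Glut2H control. Ins2 was likewise higher in the libraries labelled Glut2L, at 175841 and 294540.0 FPKM in STZ and control mice, than in those labelled Glut2H, at 52596 and 57345. Each library is therefore called by its label, and a direction between gates is a direction between libraries so labelled. Markers of other cells differed as well. Every one of 9 leukocyte, 9 stromal and 7 endothelial markers was lower in Glut2L in both pairs, by at least 2-fold. The leukocyte markers summed to 123 and 88.2 FPKM in Glut2L STZ and Glut2L control, against 3221 and 2986 in Glut2H STZ and Glut2H control. For the stromal markers the sums were 9.06 and 10.8 in the Glut2L libraries against 239 and 263 in the Glut2H libraries, and for the endothelial markers 13.2 and 28.9 against 210 and 223. The 8 acinar markers summed to 283 in Glut2L STZ, 3446 in Glut2H STZ, 2588 in Glut2L control and 3183 in Glut2H control. The 10 beta cell markers summed to between 67187 and 338005 FPKM, 5 alpha cell markers to between 2315 and 9962, 4 delta and PP cell markers to between 5612 and 10509 and 7 duct markers to between 136 and 206. Mesothelial and Schwann cell markers summed to at most 2.45 and 11.4 in any library, with Upk3b and Upk1b of mesothelium listed at 0 throughout. Red blood cell markers summed to 76.3 in Glut2H control and at most 1.02 elsewhere. The part of these cells in the results below was not tested, and in sorted bulk RNA fewer cells of a type and less RNA per cell cannot be told apart. A short predicted gene, Gm20594, took 68.5% and 61.0% of the summed FPKM in Glut2H STZ and Glut2H control, and 4.15% and 3.86% in the Glut2L libraries. Giving every library the same total FPKM therefore moves the median difference of all genes between the gates to 1.18 in STZ mice and 0.87 in control mice, whereas at the deposited scale it was 0.23 and 0.15. The share of genes past 2-fold that were higher in Glut2L, 56.4% in STZ mice and 51.6% in control mice as deposited, was then 85.6% and 78.6%, and with the median of all genes moved to 0 it was 43.1% and 43.0%.

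Summed over the 10 genes, FPKM as deposited were close across the libraries, at 105.7 in Glut2L STZ, 100.1 in Glut2H STZ, 117 in Glut2L control and 114 in Glut2H control, but different genes made up the sum. All rows summed to 1562036 FPKM in Glut2L STZ, 3428745 in Glut2H STZ, 1654276 in Glut2L control and 2935084 in Glut2H control. With equal library totals the sums of the 10 genes would therefore lie further apart between the gates. Aldh1l2, Aldh3a2 and Aldh9a1 led both libraries labelled Glut2L, where these 3 gave 85.1% (STZ) and 94.7% (control) of the sum. In Glut2H STZ the leaders were Aldh1l2, Aldh2 and Aldh3a2, with 79.3%. In Glut2H control they were Aldh2, Aldh1b1 and Aldh3a2, with 57.1%, and 7 of the 10 genes stood at 5 FPKM or more, against 3 in Glut2L control. The order of neighbouring genes is loose: the deposited intervals overlapped in all 9 neighbouring pairs of Glut2L STZ, Glut2H STZ and Glut2H control, and in 8 of 9 in Glut2L control.

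**Figure D1:**
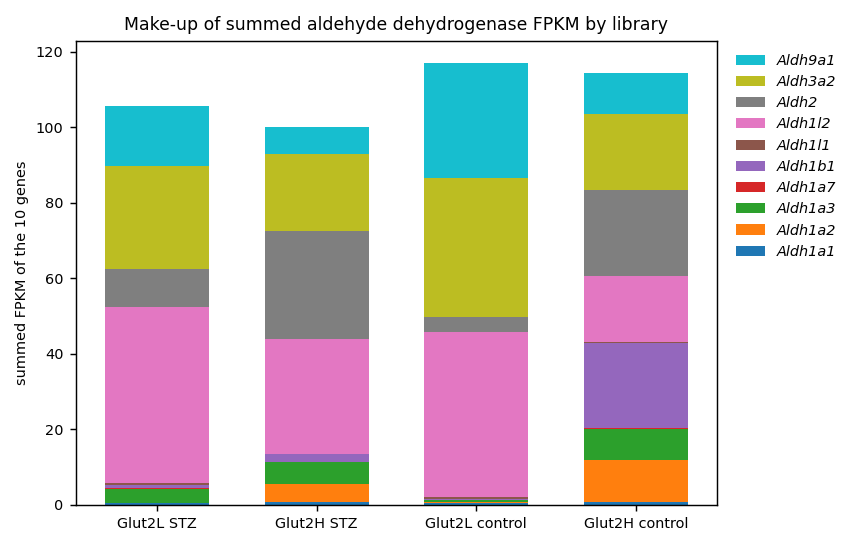
Summed FPKM of the 10 aldehyde dehydrogenase genes in each library, stacked by gene (1 library per bar, no error available). At the deposited scale the sums lie between 100.1 and 117, while Aldh1b1 takes 19.5% of the sum in Glut2H control and at most 2.29% in the other libraries.

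Among the 10 genes, 7 reached 1 FPKM in some library. In all 7, both libraries labelled Glut2L lay on the same side of both libraries labelled Glut2H. Aldh1l2, Aldh3a2 and Aldh9a1 were above in both, as were 32.8% of all 17732 genes so measured, and Aldh1a2, Aldh1a3, Aldh1b1 and Aldh2 were below in both, as were 21.0%. STZ and control libraries of a gate are not replicates, and these counts, chosen after the values were seen, are a description. The other 3 genes, Aldh1a1, Aldh1a7 and Aldh1l1, stayed under 1 FPKM in every library.

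**Figure D2:**
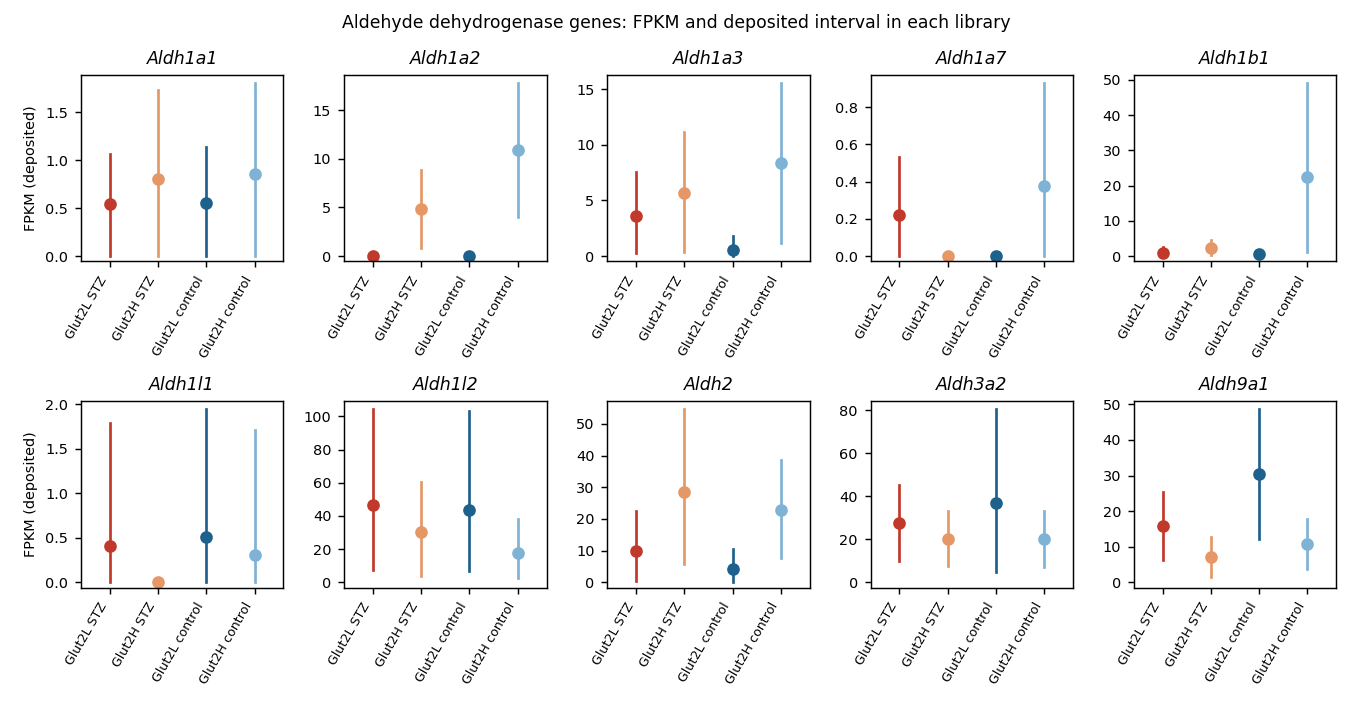
FPKM of each gene in the 4 libraries (points, 1 library each) with the deposited intervals (lines, level not stated), each panel on its own linear axis. Aldh1b1 stands out in Glut2H control at 22.3 FPKM, Aldh1a2 stands at 4.82 FPKM in Glut2H STZ and 10.9 in Glut2H control, against at most 0.0515 in the Glut2L libraries, and the intervals of most genes overlap.

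Among the retinaldehyde dehydrogenases, Aldh1a2 (ENSMUSG00000013584, protein-coding, GRCm38 chromosome 9, 71215789 to 71296243, plus strand) separated the gates most plainly. This enzyme makes retinoic acid in the embryo and, in adult tissue, is known from mesothelium, stroma and some leukocytes. It was listed at 0 FPKM in Glut2L STZ and stood at 4.82 in Glut2H STZ (interval 0.847 to 8.83). It stood at 0.0515 in Glut2L control (0 to 0.181) and 10.9 in Glut2H control (4.05 to 17.8). Both Glut2H libraries were high and both Glut2L libraries were at or near 0, and the deposited intervals did not overlap in either pair, the only such case among the 10 genes. The control difference was -3.50 on the log2 scale, and -3.65 relative to the median of all genes. No fold is given in STZ mice, where 1 library is listed at 0. No gene in a set of 10 that every cell uses was listed at 0 in any library. The lowest of these, Tbp, stood at 5.17 to 6.76 FPKM, so the set cannot show whether a lower gene was missed. Stromal, leukocyte and endothelial marker sums moved with Aldh1a2 between the gates, being lower in the Glut2L libraries. Within Glut2H, where Aldh1a2 was lower in STZ than in control, the leukocyte sum was higher (3221 against 2986 FPKM). The stromal (239 against 263) and endothelial (210 against 223) sums were lower in that comparison. The part of these cells in the Aldh1a2 differences was not tested. The 5 mesothelial markers summed to 2.45 FPKM in Glut2L STZ, 0.790 in Glut2H STZ, 1.76 in Glut2L control and 1.62 in Glut2H control. Among them Wt1 stood at 0.312, 0, 0 and 1.02 FPKM in the same libraries. Msln stood at 1.73, 0.746, 1.32 and 0.598, and Lrrn4 at 0.401, 0.0434, 0.438 and 0. Wt1, like Aldh1a2, was lower in Glut2L control than in Glut2H control. In STZ mice Wt1 was higher in Glut2L, where Aldh1a2 was lower. Msln and Lrrn4 were higher in the Glut2L library of both pairs. These values are near the floor, and the part of mesothelial cells was not tested.

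Aldh1a3 (ENSMUSG00000015134, chromosome 7, 66390890 to 66427517, minus strand), the retinaldehyde dehydrogenase known from failing beta cells, stood at 3.62 FPKM in Glut2L STZ (interval 0.313 to 7.54), 5.66 in Glut2H STZ (0.323 to 11.2), 0.531 in Glut2L control (0 to 1.78) and 8.35 in Glut2H control (1.14 to 15.6). The Glut2L control library was the low one, but its interval overlapped those of the other 3. In control mice Aldh1a3 was lower in Glut2L than in Glut2H by a log2 difference of -2.61. In STZ mice the gate difference was -0.53, short of 2-fold, and it became 0.40 with equal library totals. Within the libraries labelled Glut2L, Aldh1a3 was 6.81-fold higher in STZ than in control mice as a plain ratio and 1.59 higher on the log2 scale, yet the 2 intervals overlapped. All 8 acinar markers were at least 2-fold lower in Glut2L STZ than in Glut2L control, and 0 of 10 beta cell markers differed at least 2-fold between these libraries. Of 5 alpha cell markers, Gcg, the glucagon gene, was at least 2-fold higher, at 9893 FPKM in Glut2L STZ against 4170 in Glut2L control, and the median difference of the 5 was 0.75. The part of these cells in the Aldh1a3 difference was not tested. Within the libraries labelled Glut2H, STZ was lower than control by a log2 difference of -0.49.

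Over the 4 libraries the protein-coding genes nearest to Aldh1a3 in shape, among 9722 with at least 5 FPKM in some library, were Pdlim4, Cdt1 and Fmnl3. Their Euclidean distances from Aldh1a3 in centred log2(FPKM + 1) were 0.26, 0.27 and 0.29. Cdt1, a licensing factor of DNA replication, stood at 3.29 FPKM in Glut2L STZ, 5.27 in Glut2H STZ, 0.228 in Glut2L control and 8.75 in Glut2H control. Among those of the 10 genes described here that reached 1 FPKM, the nearest to Aldh1a3 was Aldh2, at 0.71. Other Aldh genes were not part of that ranking. With 4 points such likeness is a description.

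Aldh1a1 (ENSMUSG00000053279, chromosome 19, 20492715 to 20643465, plus strand) and its rodent paralogue Aldh1a7 (ENSMUSG00000024747, chromosome 19, 20692953 to 20727562, minus strand) were near the floor everywhere. Aldh1a1, which marks stem and progenitor cells in many tissues, stood at 0.541 FPKM in Glut2L STZ, 0.801 in Glut2H STZ, 0.555 in Glut2L control and 0.850 in Glut2H control, and all 4 deposited intervals began at 0. Aldh1a7 stood at 0.218 in Glut2L STZ and 0.376 in Glut2H control and was listed at 0 in the other libraries. The 2 genes are so alike that some reads may match both: their open reading frames matched at 91.9% of 1501 aligned bases, with a longest identical run of 100 bases between the transcripts, whereas the next most alike pair of the 45, Aldh1l1 and Aldh1l2, matched at 72.7%. The sources used here do not say how shared reads were counted, so the split between Aldh1a1 and Aldh1a7 is uncertain. The likeness reaches upstream of the genes. In the 300 bases around the start site (250 before to 50 after, RefSeq on GRCm38.p6), the last 150 bases of the promoters were identical at 94.7% of positions, with an unbroken shared run of 65 bases. Aldh1a1 has 2 entries there, and the one like Aldh1a7 is shown. Both are printed to let the shared stretch be read, 5′ to 3′ on each gene's strand, with capitals on matches, on either strand, to 5 motifs: the CCAAT box, the GC box GGGCGG, the TATA box TATAAA, the nuclear receptor half-site AGGTCA and the octamer ATGCAAAT, the last chosen after the sequences were seen.

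Aldh1a1 promoter, chr19:20601718-20602017, plus strand: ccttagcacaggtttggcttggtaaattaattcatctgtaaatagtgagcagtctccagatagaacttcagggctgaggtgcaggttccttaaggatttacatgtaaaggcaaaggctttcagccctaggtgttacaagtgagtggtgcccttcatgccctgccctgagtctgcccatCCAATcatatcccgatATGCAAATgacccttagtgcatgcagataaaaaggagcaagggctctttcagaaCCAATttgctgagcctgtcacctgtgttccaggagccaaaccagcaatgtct

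Aldh1a7 promoter, chr19:20727507-20727806, minus strand: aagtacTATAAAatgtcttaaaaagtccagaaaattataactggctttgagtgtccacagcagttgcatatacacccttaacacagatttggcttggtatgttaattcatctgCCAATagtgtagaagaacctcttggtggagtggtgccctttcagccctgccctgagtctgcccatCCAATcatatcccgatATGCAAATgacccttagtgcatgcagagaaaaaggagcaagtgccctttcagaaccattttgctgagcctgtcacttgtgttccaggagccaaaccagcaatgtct

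The other retinaldehyde dehydrogenase in the RefSeq table, Aldh1a2, has a promoter of 78.0% G and C, above 98.2% of 27025 promoters, where the pair above has 47.0% (Aldh1a1) and 44.0% (Aldh1a7). It holds the same octamer, which 1.75% of all promoters hold, and a CCAAT box, which 37.9% hold. A match of letters is a description and not a binding site.

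Aldh1a2 promoter, chr9:71215539-71215838, plus strand: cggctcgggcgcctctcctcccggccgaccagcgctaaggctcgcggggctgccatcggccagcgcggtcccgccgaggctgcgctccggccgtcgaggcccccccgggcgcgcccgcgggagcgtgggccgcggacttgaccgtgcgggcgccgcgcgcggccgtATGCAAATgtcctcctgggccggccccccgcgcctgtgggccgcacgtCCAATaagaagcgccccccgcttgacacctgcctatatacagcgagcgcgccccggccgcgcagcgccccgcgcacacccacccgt

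Around the codon of the active-site cysteine the coding sequences of 4 members are set side by side, since each holds a cysteine codon there and the bases beside it differ. The 45 bases of each are from GENCODE transcripts, with the cysteine codon in capitals (codon 303 in Aldh1a1 and Aldh1a7, 320 in Aldh1a2 and 321 in Aldh1b1, counted from the start codon).

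Aldh1a1 coding sequence: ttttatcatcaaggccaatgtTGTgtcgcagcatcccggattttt

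Aldh1a7 coding sequence: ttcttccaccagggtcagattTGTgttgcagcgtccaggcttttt

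Aldh1a2 coding sequence: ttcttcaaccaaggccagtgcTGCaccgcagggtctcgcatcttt

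Aldh1b1 coding sequence: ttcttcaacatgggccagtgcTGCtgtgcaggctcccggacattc

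Of the mitochondrial acetaldehyde enzymes, Aldh1b1 (ENSMUSG00000035561, chromosome 4, 45799022 to 45804604, plus strand) was high in a single library. It stood at 0.985 FPKM in Glut2L STZ (interval 0 to 2.43), 2.29 in Glut2H STZ (0.157 to 4.50), 0.470 in Glut2L control (0 to 1.52) and 22.3 in Glut2H control (1.20 to 49.1). The interval of Glut2H control is wide and reaches down into those of the other libraries. Relative to Glut2H control, Aldh1b1 was lower in Glut2L control (log2 difference -3.99) and in Glut2H STZ (-2.83, where the plain ratio of control over STZ was 9.77). In STZ mice the gate difference was -0.73, which was -1.14, past 2-fold, with a pseudocount of 0.1, -0.28 with a pseudocount of 5 and -0.049 with equal library totals. Its reading frame was closest to that of Aldh2, at 71.8% of aligned bases. The promoter is shown because this gene, a progenitor marker, was lower in the gate stated to hold more progenitors: it holds a GC box (present in 35.9% of promoters) and a CCAAT box on the reverse strand.

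Aldh1b1 promoter, chr4:45798772-45799071, plus strand: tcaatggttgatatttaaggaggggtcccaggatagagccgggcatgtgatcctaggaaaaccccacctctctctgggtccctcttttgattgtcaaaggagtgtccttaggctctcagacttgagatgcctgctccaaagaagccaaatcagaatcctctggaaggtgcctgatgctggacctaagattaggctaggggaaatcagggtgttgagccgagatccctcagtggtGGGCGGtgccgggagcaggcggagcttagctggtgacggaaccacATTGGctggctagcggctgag

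The nearest genes to Aldh1b1 over the 4 libraries were Lyz1, Cbr2 and Pdlim2, at distances of 0.58, 0.60 and 0.67. Lyz1, a lysozyme gene, stood at 1.19 FPKM in Glut2L STZ, 2.71 in Glut2H STZ, 0 in Glut2L control and 21.2 in Glut2H control, and Cbr2, a carbonyl reductase gene, at 0, 0.679, 0 and 7.84 in the same libraries. The haemoglobin gene Hba-a1, a red blood cell marker, was listed at 0 in Glut2L STZ, Glut2H STZ and Glut2L control and stood at 45.0 FPKM in Glut2H control. The part of blood or other cells in the Aldh1b1 value was not tested.

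Aldh2 (ENSMUSG00000029455, chromosome 5, 121566027 to 121593824, minus strand), the main acetaldehyde dehydrogenase, stood at 9.997 FPKM in Glut2L STZ (interval 0.309 to 22.5), 28.6 in Glut2H STZ (5.86 to 54.6), 4.05 in Glut2L control (0.227 to 10.5) and 22.8 in Glut2H control (7.69 to 38.6). Both libraries labelled Glut2L were lower, with overlapping intervals in each pair. The log2 gate difference was -1.43 in STZ mice and -2.23 in control mice, and the STZ value shrank to -0.36 with equal library totals. STZ was higher than control by 1.12 in the libraries labelled Glut2L and by 0.32 in those labelled Glut2H. Leukocyte, stromal and endothelial marker sums were lower in the Glut2L libraries too. Between STZ and control within Glut2L, the leukocyte sum was higher (123 against 88.2 FPKM). Of the 9 leukocyte markers 1 was at least 2-fold higher there and 1 lower. The stromal (9.06 against 10.8), endothelial (13.2 against 28.9) and acinar (283 against 2588) sums were lower. The part of these cells in the Aldh2 difference was not tested.

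The folate enzymes differed from each other by level. Aldh1l2 (ENSMUSG00000020256, chromosome 10, 83487450 to 83534140, minus strand), the mitochondrial form, was the leading gene of the 10 described here in 3 libraries. It stood at 46.6 FPKM in Glut2L STZ (interval 7.30 to 104), 30.4 in Glut2H STZ (3.69 to 60.5), 43.6 in Glut2L control (6.56 to 103) and 17.5 in Glut2H control (2.87 to 38.3). The Glut2L library was above Glut2H, by 0.60 in STZ mice and 1.27 in control mice on the log2 scale, and all 4 intervals overlapped. STZ was above control by 0.09 in Glut2L and 0.76 in Glut2H. Aldh1l1 (ENSMUSG00000030088, chromosome 6, 90486427 to 90600203, plus strand), the cytosolic form typical of liver and astrocytes, stood at 0.407 in Glut2L STZ, 0.508 in Glut2L control and 0.310 in Glut2H control, and was listed at 0 in Glut2H STZ.

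Of the 17 genes chosen for folate one-carbon metabolism around Aldh1l1 and Aldh1l2, 16 were measured in each gate comparison, and 2 were higher and 3 lower in Glut2L STZ than in Glut2H STZ (median -0.06), and 1 higher and 4 lower in Glut2L control than in Glut2H control (median -0.24). Against control, STZ gave 1 higher and 1 lower of 15 in Glut2L (median 0.09) and 0 higher and 2 lower of 16 in Glut2H (median -0.43). Of all measured genes, 22.9% were higher and 17.8% lower in Glut2L in STZ mice (median 0.23), and 19.7% and 18.5% in control mice (median 0.15). For STZ against control the shares were 10.2% and 11.1% in Glut2L (median 0.0042) and 9.62% and 13.8% in Glut2H (median -0.07). Mthfd2, the mitochondrial methylenetetrahydrofolate dehydrogenase and a gene named here outside the fixed rule, was level at 37.4, 40.6, 41.4 and 32.6 FPKM in Glut2L STZ, Glut2H STZ, Glut2L control and Glut2H control. Fpgs, which adds glutamates to folates, turned about between the pairs, at 3.04 in Glut2L STZ against 16.3 in Glut2H STZ, and 20.5 in Glut2L control against 9.41 in Glut2H control. Slc19a1, the reduced folate carrier, was lower in the Glut2L libraries, at 2.09 against 12.1 in STZ mice and 4.15 against 19.6 in control mice. Mthfs, which recycles 5-formyltetrahydrofolate, stood at 8.58 in Glut2L STZ, 4.35 in Glut2H STZ, 1.02 in Glut2L control and 12.7 in Glut2H control. Others named by rule were Mthfd1, at 19.8 FPKM in Glut2L STZ, 7.60 in Glut2H STZ, 15.8 in Glut2L control and 11.1 in Glut2H control, and Mthfd1l, at 17.4, 13.0, 14.5 and 9.32 in the same libraries. Gart, of purine synthesis, was at 5.25 in Glut2L STZ, 4.47 in Glut2H STZ, 7.14 in Glut2L control and 9.63 in Glut2H control. Slc25a32, the mitochondrial folate carrier, was at 5.82, 6.56, 4.95 and 4.43 in the same libraries.

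Aldh3a2 (ENSMUSG00000010025, chromosome 11, 61223417 to 61267464, minus strand), which encodes the fatty aldehyde dehydrogenase of the endoplasmic reticulum, varied little. It stood at 27.4 FPKM in Glut2L STZ (interval 9.73 to 45.1), 20.3 in Glut2H STZ (7.39 to 33.3), 36.9 in Glut2L control (4.88 to 80.7) and 20.2 in Glut2H control (7.07 to 33.3). The Glut2L libraries were the higher ones, by 0.42 in STZ mice and 0.84 in control mice on the log2 scale, short of 2-fold as deposited and past it in both pairs with equal library totals. STZ was below control by a log2 difference of -0.41 in Glut2L, while in Glut2H the difference was 0.01.

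Aldh9a1 (ENSMUSG00000026687, chromosome 1, 167349991 to 167368532, plus strand) oxidises 4-trimethylaminobutyraldehyde, a step of carnitine synthesis. It stood at 15.9 FPKM in Glut2L STZ (interval 6.38 to 25.5), 7.17 in Glut2H STZ (1.55 to 12.8), 30.4 in Glut2L control (12.2 to 48.6) and 10.8 in Glut2H control (3.77 to 17.9). It was higher in the libraries labelled Glut2L by 1.05 in STZ mice and 1.41 in control mice, or 0.81 and 1.26 relative to the median of all genes. STZ was lower than control in both gates, by log2 differences of -0.90 in Glut2L and -0.54 in Glut2H, and every pair of intervals overlapped. Beta cell markers, whose sums were higher in the Glut2L libraries, moved with Aldh9a1, Aldh3a2 and Aldh1l2 between the gates.

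Set against all genes, the gates differed as follows. In STZ mice 1 of the 10 genes, Aldh9a1, was at least 2-fold higher in Glut2L than in Glut2H, where 22.9% of 15839 measured genes were, and 2, Aldh1a2 and Aldh2, were lower, where 17.8% were. In control mice 2, Aldh1l2 and Aldh9a1, were higher in Glut2L, where 19.7% of 16234 were, and 4, Aldh1a2, Aldh1a3, Aldh1b1 and Aldh2, were lower, where 18.5% were. In both pairs 7 of the 10 genes were measured. A gene that reached 1 FPKM in Glut2H alone had to be lower in Glut2L, though not by 2-fold. This held for Aldh1a2, Aldh1a3 and Aldh1b1 in control mice and for Aldh1a2 and Aldh1b1 in STZ mice. Aldh9a1 was higher and Aldh1a2 and Aldh2 were lower in both pairs. With equal library totals, 58.4% of all genes were higher and 9.79% lower in STZ mice, and 44.3% and 12.1% in control mice. Aldh1l2, Aldh3a2 and Aldh9a1 were then at least 2-fold higher in both pairs.

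Between STZ and control the median difference of all genes was 0.0042 in Glut2L and -0.07 in Glut2H. In Glut2L 2 of the 10, Aldh1a3 and Aldh2, were at least 2-fold higher after STZ, where 10.2% of 15602 genes were, and 0 were lower, where 11.1% were, with 5 of the 10 measured. In Glut2H 0 were higher, where 9.62% of 15558 genes were, and 2, Aldh1a2 and Aldh1b1, were lower, where 13.8% were, with 7 measured. Aldh1a2 stood just past the threshold, at -1.03. In Glut2L, Aldh1a3 reached 1 FPKM in the STZ library alone (0.531 in control), so it had to be higher after STZ, though not by 2-fold. Aldh2 reached 1 FPKM in both Glut2L libraries. In Glut2H, every measured gene of the 10 reached 1 FPKM in both libraries. No deposited intervals of STZ and control were apart for any of the 10 genes in either gate.

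**Figure D3:**
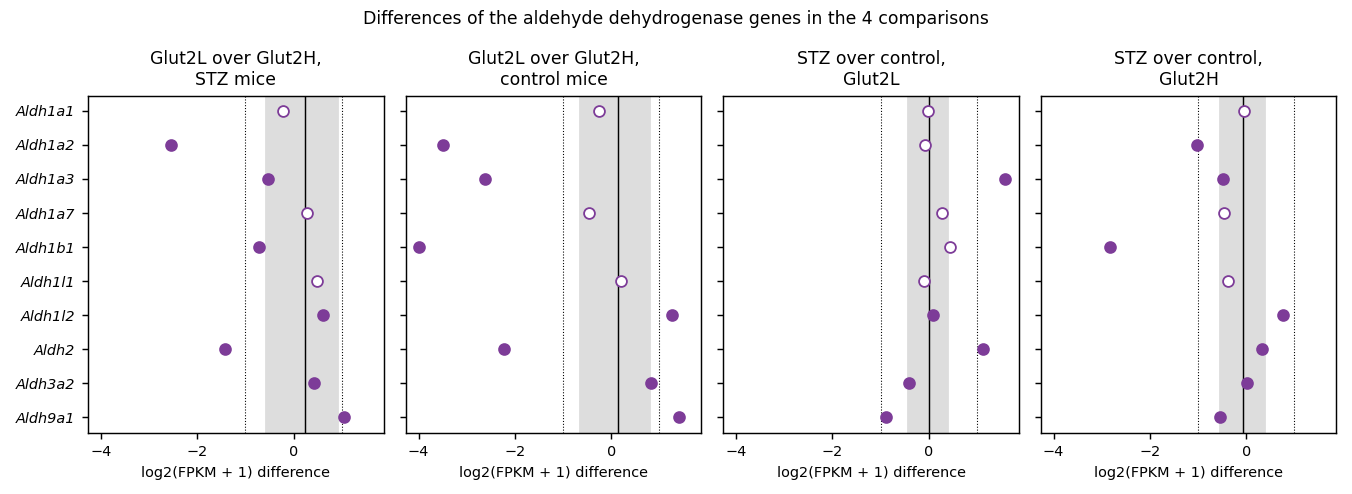
Differences of log2(FPKM + 1) of each gene in the 4 comparisons (filled points, at least 1 FPKM in the higher library; open points, below it), with the median of all genes (line), their middle 50% (grey) and the 2-fold limits (dotted). Aldh1a2, Aldh1a3, Aldh1b1 and Aldh2 lie left of the lower limit in control mice, and Aldh1a3 and Aldh2 lie right of the upper limit for STZ over control in Glut2L. Where a gene reached 1 FPKM in only 1 library of a comparison, its direction was set by that filter, though not a 2-fold size.

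Of 11 other Aldh genes, 10 were in the table. Between the gates 2 were higher and 1 lower of 7 measured in STZ mice (median 0.11), and 2 higher and 2 lower of 8 in control mice (median 0.36). Against control, STZ gave 1 higher and 1 lower of 7 in Glut2L (median 0.15) and 1 higher and 1 lower of 8 in Glut2H (median -0.09). Among all measured genes the gate shares were 22.9% higher and 17.8% lower in STZ mice (median 0.23). In control mice they were 19.7% and 18.5% (median 0.15). For STZ against control they were 10.2% and 11.1% in Glut2L (median 0.0042) and 9.62% and 13.8% in Glut2H (median -0.07). Aldh18a1, which makes the precursor of proline and ornithine, was the highest Aldh gene in both Glut2L libraries, at 61.3 FPKM in Glut2L STZ, 24.5 in Glut2H STZ, 80.2 in Glut2L control and 26.0 in Glut2H control. Aldh16a1 was low in 1 library, at 17.3 in Glut2L STZ, 17.5 in Glut2H STZ, 2.14 in Glut2L control and 28.9 in Glut2H control. Aldh5a1, the succinate semialdehyde dehydrogenase of GABA breakdown, was higher in the Glut2L libraries, at 11.0 against 4.52 in STZ mice and 8.68 against 3.78 in control mice. Aldh3b1 was lower there, at 2.21 against 8.82 and 2.74 against 9.51. Aldh7a1, of lysine breakdown, was lower after STZ in both gates, at 7.51 against 16.4 in Glut2L and 6.87 against 14.2 in Glut2H.

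The retinoic acid pathway around the Aldh1a genes was described from 23 genes, of which 22 were in the table. In STZ mice 2 were higher and 3 lower in Glut2L of 14 measured (median 0.22), and in control mice 3 were higher and 5 lower of 15 (median -0.53). STZ against control gave 0 higher and 0 lower of 14 in Glut2L (median 0.21) and 1 higher and 1 lower of 13 in Glut2H (median -0.29). Over all measured genes, 22.9% were higher and 17.8% lower in Glut2L in STZ mice, with a median of 0.23. In control mice the shares were 19.7% and 18.5%, with a median of 0.15. For STZ against control they were 10.2% and 11.1% in Glut2L (median 0.0042) and 9.62% and 13.8% in Glut2H (median -0.07). On the supply side, Rbp4, the retinol carrier of blood, was higher in the Glut2L libraries, at 132 FPKM against 71.3 in STZ mice and 97.3 against 39.8 in control mice, and Adh1, a retinol-oxidising alcohol dehydrogenase, stood at 18.9 against 17.6 and 37.9 against 13.8. Dhrs3, which turns retinaldehyde back to retinol, was lower, at 1.40 against 10.9 in STZ mice and 2.57 against 22.9 in control mice. Among the receptors, Rara was at 1.56 in Glut2L STZ, 16.1 in Glut2H STZ, 1.15 in Glut2L control and 6.21 in Glut2H control. Rxrb was at 17.2, 11.7, 15.3 and 12.0, and Rarg at 5.53, 3.53, 5.58 and 6.33, in the same libraries. Tgm2, a transglutaminase gene induced by retinoic acid and also made by endothelium and macrophages, was at 2.72 in Glut2L STZ, 40.6 in Glut2H STZ, 1.04 in Glut2L control and 60.3 in Glut2H control. Rdh11, a retinal reductase, was at 11.4, 9.59, 7.93 and 11.9. Leukocyte and endothelial marker sums were lower in the Glut2L libraries alongside Tgm2, Rara and Dhrs3.

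**Figure D4:**
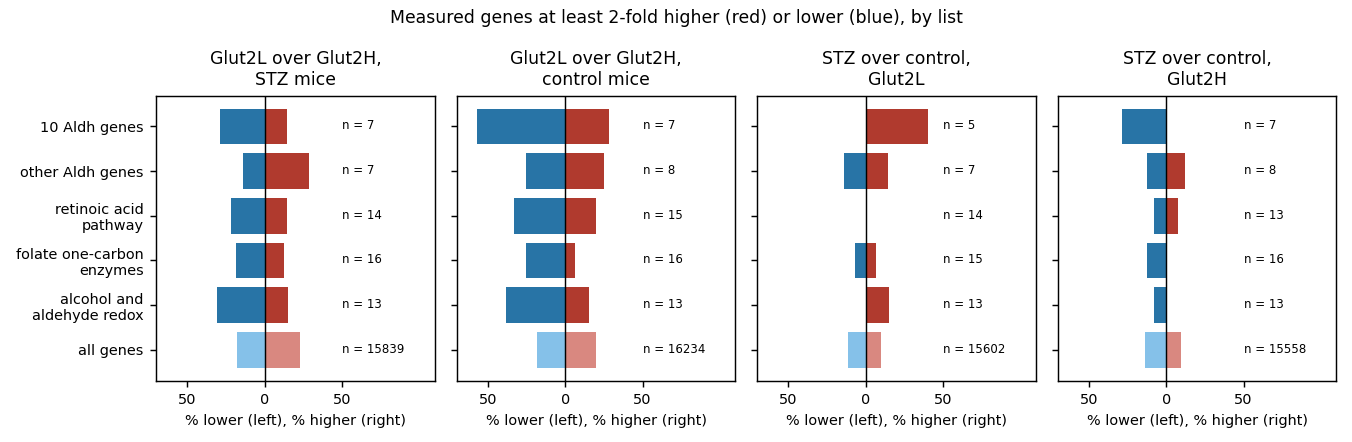
Share of measured genes at least 2-fold higher (right, red) or lower (left, blue) in each comparison, for the 10 genes, 4 lists around them and all genes (n, measured genes; 1 library per group). In control mice 4 of the 7 measured aldehyde dehydrogenases and 5 of 15 retinoic acid pathway genes are lower in Glut2L, beside 18.5% of all genes. Of the 4, Aldh1a2, Aldh1a3 and Aldh1b1 reached 1 FPKM in Glut2H control alone, as did some of the 5. These genes had to be lower in Glut2L, though not by 2-fold.

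**Figure D5:**
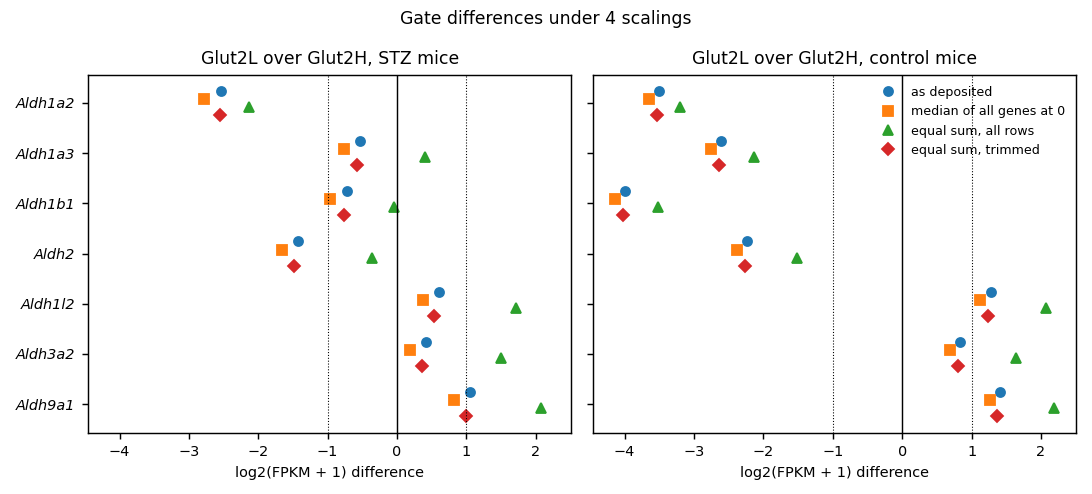
Gate differences of the 7 measured genes under 4 scalings, with dotted lines at 2-fold. In control mice Aldh1a2, Aldh1a3, Aldh1b1 and Aldh2 are more than 2-fold lower in Glut2L under all 4, while in STZ mice Aldh1a3 lies at 0.40 with an equal sum over all rows and at -0.53 as deposited.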

How the data were processed

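Stranded libraries of total RNA were prepared after depletion of ribosomal RNA (TruSeq, Ribo-Zero Gold), per the labels' protocols. The authors' processing used TopHat2, SAMtools and Cuffdiff on GRCm38 (mm10), per the submitters' processing notes, with versions and a normalization setting that the sources used here do not state. The deposited values are FPKM with interval bounds and a status, per the file headers. The tables of the single samples held the same values (0 of 470040 differed). FPKM steps did not give reads: among 280 genes under 0.5 FPKM the fullest bin of 0.05 (log2) held 7. No total count is known, so depth cannot set a precision.

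Members and lists were chosen with earlier results of these data known. The rule on names took every member, other Aldh genes of at least 5 FPKM, the 2 highest and 2 lowest list genes per comparison, and the 3 genes nearest Aldh1a3 and Aldh1b1; others are said to be outside it, or are markers, and 1 gene it names is not reported here. Differences of log2(FPKM + 1) were computed for 4 comparisons in Python 3.11.15 with pandas 2.3.3 over rows with at least 1 FPKM and a status of OK in both libraries, without a test, and the code was tested on simulated data. The alternatives tried were pseudocounts of 0.1 and 5, a filter of 5 FPKM or none, 3 scalings, intervals that do not overlap, and the single-sample tables. Positions and transcripts are from GENCODE M21, aligned with Biopython 1.88, and promoters from RefSeq, which held 7 of the 10 genes (not Aldh1a3, Aldh1l2 and Aldh2).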

Additional observations from a re-analysis of the deposited data

Results flagged for a closer look

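Aldh1a3 was flagged because its STZ effect had opposite directions in the gates: 1.59 in Glut2L and -0.49 in Glut2H on the log2 scale, a difference of 2.08. Aldh3a2 was flagged for the same reason, with -0.41 in Glut2L and 0.01 in Glut2H, a difference of -0.42, both effects being short of 2-fold. Neither difference was tested, since each gate has 1 STZ and 1 control library. Aldh1a3 reached 1 FPKM in Glut2L STZ but not in Glut2L control, so in Glut2L it had to be higher after STZ. Of the 13427 genes measured in both gates, 49.5% had effects of opposite sign, and of the 5 members so measured 2 did.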

How the results depend on the processing

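Of the differences of single genes recomputed under an alternative, 192 stayed on the same side of the 2-fold limit, 9 no longer reached it and 4 newly reached it. Of the 192, 26 came from no filter, 23 from the filter of 5 FPKM and 26 from the single-sample tables. Those settings leave a gene's difference as it was, so these could not move. The setting of intervals that do not overlap was not part of this tally. Aldh1b1 was at least 2-fold lower in Glut2H STZ than in Glut2H control, and Aldh1a2, Aldh1a3, Aldh1b1 and Aldh2 were at least 2-fold lower in Glut2L control than in Glut2H control, under every pseudocount, filter and scaling. Counts of genes past 2-fold moved as follows. Requiring intervals that do not overlap left 0 higher and 1 lower (Aldh1a2) in each gate comparison, 0 higher for STZ in Glut2L and 0 lower for STZ in Glut2H. A pseudocount of 5 left 0 higher and 1 lower between the gates in STZ mice, 0 higher for STZ in Glut2L and 1 lower for STZ in Glut2H. A filter of 5 FPKM left 1 lower between the gates in STZ mice and 1 higher for STZ in Glut2L, since fewer genes pass it. Between the gates in STZ mice the count higher became 0 with a median of 0 over all genes, 0 with the trimmed equal sum and 3 with an equal sum over all rows, which also left 1 lower; for STZ in Glut2H the count lower became 1 with the median set to 0. The Aldh1a3 gate difference in STZ mice (-0.53) became 0.40 with an equal sum over all rows. The Aldh3a2 STZ difference in Glut2H (0.01) became -0.20 with an equal sum over all rows and -0.0032 with the trimmed equal sum. No other difference of a single gene changed sign under these alternatives. No paired analysis was possible because each group holds 1 library. Over all genes, counts past 2-fold moved too: between the gates in STZ mice 3634 higher and 2814 lower became 1471 and 1443 with the pseudocount of 5, 154 and 658 with intervals apart, 2335 and 1863 with the filter of 5 FPKM and 9508 and 1595 with the equal sum. In control mice 3203 and 3002 became 1418 and 1462, 83 and 681, 2218 and 1937 and 7351 and 2006. For STZ in Glut2L 1585 and 1726 became 537 and 598, 50 and 64 and 857 and 926 under the first 3 of these, and for STZ in Glut2H 1496 and 2153 became 570 and 671, 59 and 102 and 910 and 1114. The cause of these moves was not tested. Unknown depth leaves levels under 1 FPKM unresolved.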

Other observations

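Enzymes that reduce or oxidise alcohols and aldehydes beside the Aldh family, a list of 15 genes of which Adh1 and Adh7 are also in the retinoic acid list, gave 2 higher and 4 lower in Glut2L of 13 measured in STZ mice (median -0.13), and 2 higher and 5 lower of 13 in control mice (median -0.31). STZ against control gave 2 higher and 0 lower of 13 in Glut2L (median 0.18) and 0 higher and 1 lower of 13 in Glut2H (median 0.03). The shares of all measured genes between the gates were 22.9% higher and 17.8% lower in STZ mice (median 0.23). In control mice they were 19.7% and 18.5% (median 0.15). For STZ against control they were 10.2% and 11.1% in Glut2L (median 0.0042) and 9.62% and 13.8% in Glut2H (median -0.07). Cat, the catalase gene, was lower in the Glut2L libraries: it was at 9.42 FPKM in Glut2L STZ, 65.7 in Glut2H STZ, 3.64 in Glut2L control and 40.4 in Glut2H control. Akr1b8, an aldo-keto reductase gene, was at 5.17, 42.0, 9.89 and 38.9, and Cbr3, a carbonyl reductase gene, at 1.16, 11.1, 0.662 and 8.39, in the same libraries. Cbr1, another carbonyl reductase gene, was higher in the Glut2L libraries, at 11.9 in Glut2L STZ, 4.13 in Glut2H STZ, 14.7 in Glut2L control and 5.03 in Glut2H control. Akr1b10 was at 13.0, 9.00, 10.6 and 10.5, and Sgpl1, which yields the fatty aldehyde that Aldh3a2 oxidises, at 21.7, 39.3, 28.3 and 29.1, in that order of libraries.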
